A study of Mus musculus with 36 samples.

Results

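RNA from primary mouse hepatocytes was compared between 3 libraries with the mouse GKRP-446P vector alone (mP) and 3 with that vector together with GK overexpression (GK+mP), to measure what remained of the transcriptional response to GK when GKRP-446P was expressed from a vector. They were chosen by their labels, which give GKRP-446P without or with GK, and are 6 of the 36 libraries of the series. Each of 3 hepatocyte preparations, from 3 different female mice of the GCKR-P446L-EMI-B6N strain aged 14 weeks, gave 1 mP and 1 GK+mP culture, so every difference was taken within a mouse. Mice 1 and 2 carry the genotype Gckr-446L by the labels and mouse 3 the genotype Gckr-446P/L, and the study's methods state for 446L homozygotes that hepatocytes do not hold endogenous GK in the nucleus, a statement that does not cover the label of mouse 3. All cultures had 10 nM insulin and 10 nM dexamethasone, 24 h in culture at 5 mM glucose and a final 4 h at 25 mM glucose. The reference pair without GKRP was GK overexpression alone against untreated hepatocytes, from the same 3 mice with 2 cultures each. It is called without GKRP here because it had no GKRP vector, although these cells still express their endogenous Gckr. The other GKRP pairs were GK+mL against mL (mouse GKRP-446L) and GK+hP against hP (human GKRP-446P). None of these pairs shares a library with another. The GK vector carries a rat cDNA by its prefix in the vector list of the study's supplement. The GK+mP cultures received an additional adenovirus that the mP cultures did not. In the reference pair the GK cultures received an adenovirus and the untreated cultures none. No empty vector was used in the libraries analysed here, so GK protein and adenoviral load cannot be told apart in either pair. The study instead set GK overexpression against all its groups at endogenous GK combined, to limit genes that respond to the vector itself.

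Glucokinase (GK) phosphorylates glucose in hepatocytes. Its regulatory protein GKRP (gene Gckr) binds GK in the nucleus at low glucose and holds it inactive, and a rise in glucose or fructose metabolites releases it to the cytoplasm. Glucose 6-phosphate and downstream metabolites activate the transcription factor ChREBP (gene Mlxipl), which binds carbohydrate response elements in the promoters of genes such as Pklr (liver pyruvate kinase), Txnip (thioredoxin-interacting protein) and G6pc1 (the catalytic subunit of glucose-6-phosphatase). Overexpressed GK raises these metabolites, and GKRP in excess is known to restrain it.

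The residue that separates the mP and mL vectors is encoded in exon 15 of the 19 exons of Gckr-202, the transcript of 623 codons that carried most reads in these libraries. The reference codon for residue 446 (chr5:31466275-31466277, GRCm39, plus strand) codes for proline. It is shown in capitals with 30 coding bases on each side, read across the junction to the next exon, since it defines the GKRP form present in all 6 libraries. The bases are those of the reference transcript, not of the vector.
Gckr-202 codon 446: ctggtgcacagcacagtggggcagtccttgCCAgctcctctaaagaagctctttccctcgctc

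The Gckr count was similar with and without GK. Gene counts are given as CPM, reads per 1000000 reads of the library after TMM scaling. Gckr (ENSMUSG00000059434, chr5:31454787-31484658, GRCm39) was at 16100, 13700 and 23100 CPM in mP and at 14800, 14400 and 20100 CPM in GK+mP, and the groups overlapped. The fitted log2 difference was -0.09 (SE 0.55, interval -1.23 to 1.05), and the interval reaches from a 0.426-fold to a 2.07-fold level. It was 0.92 with an offset for effective transcript lengths. Untreated cultures of the same mice had 39.2, 61.2 and 70.7 CPM, far below the 6 libraries with the vector, and vector and endogenous transcripts cannot be told apart. Gckr-202 took 82.4% to 93.3% of the Gckr reads. Summed over the 2 cultures of a mouse, Gckr in GK overexpression without GKRP was 54.5, 69.6 and 845 CPM, so the culture of mouse 3 in the reference pair stood apart.

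**Figure D1:**
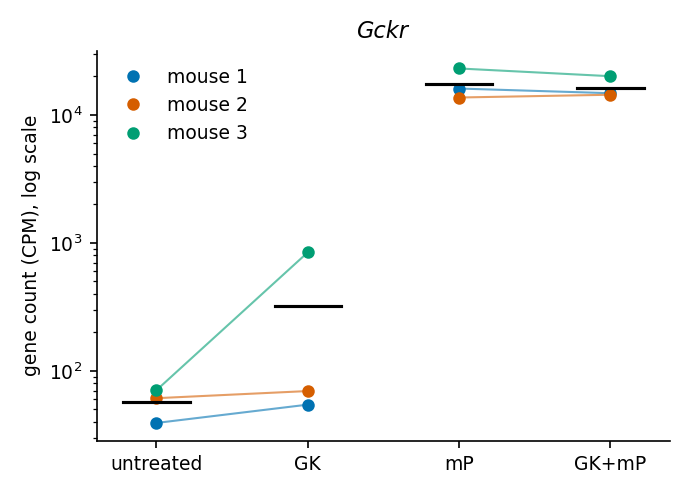
Gene count of Gckr in CPM (log axis) for the 3 mice, with lines joining the cultures of a mouse without and with GK and black bars for the mean of 3 mice. Gckr lies between 13700 and 23100 CPM in all 6 libraries with the mP vector.

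Total reads were 5824512 to 6666177 in mP and 5330381 to 6915637 in GK+mP, and mitochondrial transcripts took 5.53% to 8.31% and 5.08% to 7.09% of them. The library of GK+mP from mouse 1 stood apart by transcript length. In it the genes of shortest transcripts (2436 genes, 108 to 1021 bases) lay above their mean over all 30 samples and the genes of longest transcripts (2435 genes, over 3221 bases) below it, with a gap between the medians of 1.01 on the log2 scale. The next largest gap was 0.47, and the other 28 samples lay between -0.16 and 0.10. As a result the log2 ratio of GK+mP to mP in mouse 1 fell from a median of 0.45 in the shortest to -0.55 in the longest class, while the medians of all 5 length classes lay between -0.02 and 0.02 in mouse 2 and between 0.00 and 0.01 in mouse 3. Of the hepatocyte secretory genes, Apob (apolipoprotein B, a transcript of 9721 bases on average) was at 4080, 4160 and 4080 CPM in mP and at 1350, 4000 and 3260 CPM in GK+mP, and Apoa2 (apolipoprotein A-II, 482 bases) at 1610, 2350 and 2250 CPM and at 3130, 2110 and 2290 CPM. In both genes the shift lay mainly in mouse 1. Results are therefore given with and without mouse 1, and with an alternative that removes each library's trend on length. The part of this trend in single-gene results was otherwise not tested.

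**Figure D2:**
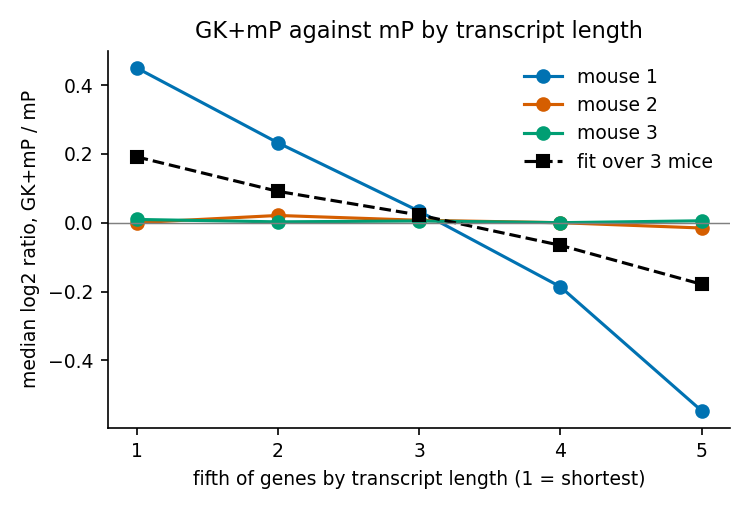
Median log2 ratio of GK+mP to mP (vertical axis) in 5 classes of genes from the shortest to the longest transcripts (horizontal axis), for each mouse and for the fit over 3 mice. Mouse 1 falls from 0.45 to -0.55, the fit from 0.19 to -0.18, and mice 2 and 3 stay within 0.02 of 0.

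No gene passed the threshold for change, an adjusted p under 0.05 with a fold of at least 1.3 or at most 0.7, in GK+mP against mP. The count was 0 of 12176 raised (0%) and 0 lowered (0%) with edgeR. At an unadjusted p under 0.05, 828 genes were higher (6.8%) and 843 lower (6.92%). With DESeq2, 9 of 11467 genes were raised (0.0785%) and 11 lowered (0.0959%). Of these 20, 16 had no reads in any library of the mP group or in any of the GK+mP group. Among these were ribosomal protein pseudogenes such as Rpl17-ps8 and the read-through gene Nme1nme2, whose reads cannot be separated with certainty from those of the abundant genes they resemble. Fnip1, Chd1 and Zfp281, named after their values were seen, were lower in DESeq2 with reads in both groups. For comparison, GK without GKRP raised 42 genes (0.345%) and lowered 2 (0.0164%), with 404 higher (3.32%) and 272 lower (2.23%) at an unadjusted p under 0.05. GK+mL against mL raised 27 (0.222%) and lowered 3 (0.0246%), with 787 higher (6.46%) and 705 lower (5.79%) at that p. GK+hP against hP raised 0 and lowered 0, with 147 higher (1.21%) and 228 lower (1.87%) at that p. GK+hL against hL also raised 0 and lowered 0, with 377 higher (3.1%) and 381 lower (3.13%).

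Without mouse 1, 465 genes were higher (3.8%) and 446 lower (3.65%) at an unadjusted p under 0.05, and with the length trend removed 567 (4.66%) and 697 (5.72%). The median standard error of a log2 difference was 0.17. The 95% interval of 4092 genes (33.6%) lay wholly between the folds of 0.7 and 1.3, so a change past these limits was compatible with the data for the remaining genes.

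The genes of smallest p that moved the same way in 3 of 3 mice are given as values, since none passed the threshold in edgeR. In the higher group, Shfl, an interferon-induced inhibitor of ribosomal frameshifting, was at 16.6, 10.5 and 13.5 CPM in mP and 26.8, 13.9 and 19.1 CPM in GK+mP (log2 difference 0.54, SE 0.11, adjusted p = 0.19). Pgp, the phosphatase that clears glycerol 3-phosphate and 2-phosphoglycolate, was at 19.8, 29.5 and 23.7 CPM against 32.5, 37.2 and 30.7 CPM (0.49, SE 0.11, adjusted p = 0.24). Without mouse 1 the differences were 0.45 for Shfl and 0.35 for Pgp. The groups did not overlap for Pgp and did for Shfl. Over all genes, the groups did not overlap in 2.67% with GK+mP the higher and in 3% with GK+mP the lower.

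Fbp2, the muscle-type fructose-1,6-bisphosphatase, was low in all libraries, at 2.58, 1.78 and 2.74 CPM against 5.67, 4.39 and 5.49 CPM (1.13, SE 0.27). Tbx3, a T-box transcription factor of hepatocytes and their progenitors, was at 2.44, 3.4 and 2.4 CPM against 3.37, 10.4 and 4.73 CPM (1.05, SE 0.27). Both differences had an adjusted p of 0.24. Without mouse 1 the Fbp2 difference was 1.12 and that of Tbx3 1.34. The other genes of the higher group were Nudt6, Cenpx, Pla2g15, Ankrd54 and Cox8a, with log2 differences from 0.42 (Pla2g15, a lysosomal phospholipase) to 1.45 (Nudt6). Cox8a, a subunit of cytochrome c oxidase with a transcript of 534 bases, was higher by 0.83, 0.17 and 0.26 in mice 1, 2 and 3, with the largest value in the mouse whose library had the length trend.

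In the lower group, Fnip1, a folliculin partner in nutrient sensing at the lysosome, was at 62.8, 86.7 and 61.0 CPM in mP and at 25.7, 63.6 and 50.2 CPM in GK+mP (-0.65, SE 0.13, adjusted p = 0.24 in edgeR and 0.00167 in DESeq2). Its transcript is long (6062 bases), and the difference was -1.28 in mouse 1 against -0.45 and -0.28 in mice 2 and 3. Senp6, a protease that removes SUMO chains, was at 75.9, 92.2 and 86.6 CPM against 59.3, 68.3 and 66.5 CPM (-0.39, SE 0.08). The 3 mice gave -0.36, -0.43 and -0.38, the groups did not overlap, and its adjusted p was 0.24. With an offset for the effective transcript lengths of each library the Senp6 value turned to 0.46. Lonrf3, a RING finger protein, gave -0.39, -0.42 and -0.67. These 2 genes kept their size without mouse 1, at -0.41 and -0.55.

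Rrm2b, the p53-inducible subunit of ribonucleotide reductase that supplies deoxynucleotides for DNA repair, was at 2.87, 4.70 and 3.60 CPM against 0.766, 1.93 and 2.65 CPM (-1.13, SE 0.24). Chd1, a chromatin remodeller with a long transcript (5394 bases), was lower by 0.94, 0.40 and 0.27 in the 3 mice (-0.52 in the fit). Without mouse 1 the differences were -0.34 for Chd1 and -0.87 for Rrm2b. Zfp950, Cnot6l, Pkn2, Zfp945 and the unnamed gene model Gm48119 completed the lower group, with differences from -0.39 (Pkn2) to -3.65 (Gm48119, which had no reads in 2 of the 3 GK+mP libraries). None of these genes belongs to the glucose-responsive list.

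The glucose-responsive genes lay slightly above 0 as a group in GK+mP against mP, at a small part of their response to GK without GKRP. Of 26 genes of the list (ChREBP targets and partners), 23 were tested, and Fgf21, Pnpla3 and Ppp1r3g were too low. None was changed. The median log2 difference was 0.28 (1.21-fold) against 0.01 over all genes tested, 19 of 23 were higher, 14 were higher in 3 of 3 mice (15.5% of all genes were), and 5 were higher at an unadjusted p under 0.05 (6.8% of all genes were). By mouse the medians were 0.14, 0.26 and 0.28. Without mouse 1 the median was 0.34 and 8 genes were higher at an unadjusted p under 0.05, beside 3.8% of all genes. In GK against untreated the same 23 genes had a median of 1.12 (2.17-fold), and 16 of them were raised. The list was written with these results known, so it is no independent evidence of direction.

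Txnip, which binds thioredoxin and limits glucose uptake, was at 11, 21.1 and 21.8 CPM in mP and at 13, 37.4 and 37.7 CPM in GK+mP. It was higher in 3 of 3 mice, but the groups overlapped because mouse 1 lay low in both. The log2 difference was 0.63 (SE 0.30, interval 0.00 to 1.26, unadjusted p = 0.0485, adjusted p = 0.36). Without GKRP, Txnip rose from 16.6, 44.8 and 123 CPM to 98.0, 274 and 344 CPM (2.09, adjusted p = 0.000735).

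Pklr was at 55.7, 29.3 and 51.1 CPM in mP and at 57.4, 47.2 and 61.9 CPM in GK+mP (0.34, SE 0.15, interval 0.03 to 0.65, adjusted p = 0.333). Mouse 2 carried the largest difference (0.68) and mouse 1 almost none (0.04). Untreated cultures of the same mice had 115, 55.6 and 96.8 CPM and GK cultures 178, 121 and 229 CPM. With mP and GK together Pklr stayed below the untreated level of its own mouse in 3 of 3 mice. The same held for GK+hP (68.1, 40.2 and 68.6 CPM) and GK+hL (70.0, 48.9 and 71.6 CPM), while GK+mL (99.7, 84.7 and 121 CPM) was lower only in mouse 1. Without GK the means were 45.4 CPM in mP, 49.2 in mL, 51.9 in hP and 58.0 in hL, against 89.2 CPM in untreated cultures, which had no adenovirus. The Pklr promoter shows the kind of element through which ChREBP acts. Of 32851 mouse promoters of 300 bases (250 before the start site, from RefSeq, GRCm38.p6), 0.119% hold the carbohydrate response element consensus on either strand, which reads the same on both. Of the glucose-responsive list, 20 genes had a promoter in that table, and the Pklr promoter alone held the consensus. It lies at -170 to -154 from the start site and is shown in capitals (chr3:89136413-89136509, GRCm38.p6, plus strand), because Pklr is the list member whose promoter can be read this way. The shorter motif CACGTG, on which both strands read alike, was found in the promoters of 5 of the 20 genes and in 7.15% of all promoters.
Pklr promoter: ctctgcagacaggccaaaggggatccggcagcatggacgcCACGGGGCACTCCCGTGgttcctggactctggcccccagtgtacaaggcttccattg

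Klf10, a glucose-induced zinc finger repressor, was at 17.1, 11 and 14.4 CPM against 16.8, 16.5 and 29.0 CPM (0.49, SE 0.23, adjusted p = 0.363), with no difference in mouse 1 (-0.02) and 0.99 in mouse 3. Tkfc, the triokinase of fructose metabolism, was at 163, 140 and 142 CPM against 188, 193 and 169 CPM (0.30, SE 0.14, adjusted p = 0.352) and its groups did not overlap. Slc37a4, the glucose 6-phosphate transporter of the endoplasmic reticulum, was at 20.1, 48.4 and 23.1 CPM against 28.6, 63.6 and 28.0 CPM (0.40, SE 0.18, adjusted p = 0.345). Txnip, Pklr, Klf10, Tkfc and Slc37a4 are the 5 list members at an unadjusted p under 0.05.

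G6pc1 was low, at 0.716, 2.43 and 1.2 CPM against 1.23, 3.86 and 1.51 CPM, and its interval was wide (0.63, -0.55 to 1.80). Rgs16, a regulator of G protein signalling, gave 0.52 (interval -0.36 to 1.41), Angptl8, an inhibitor of lipoprotein lipase, 0.58 (-0.27 to 1.43), Arrdc4, an alpha-arrestin related to Txnip, 0.37 (-0.38 to 1.11), and Slc2a2, the glucose transporter of hepatocytes, 0.28 (-0.30 to 0.87). Each of these intervals holds 0 and also a rise of more than 1.3-fold. Mlxipl itself was at 93.9, 53.3 and 54.9 CPM in mP and at 85.2, 66.5 and 70.4 CPM in GK+mP (0.17, SE 0.16).

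**Figure D3:**
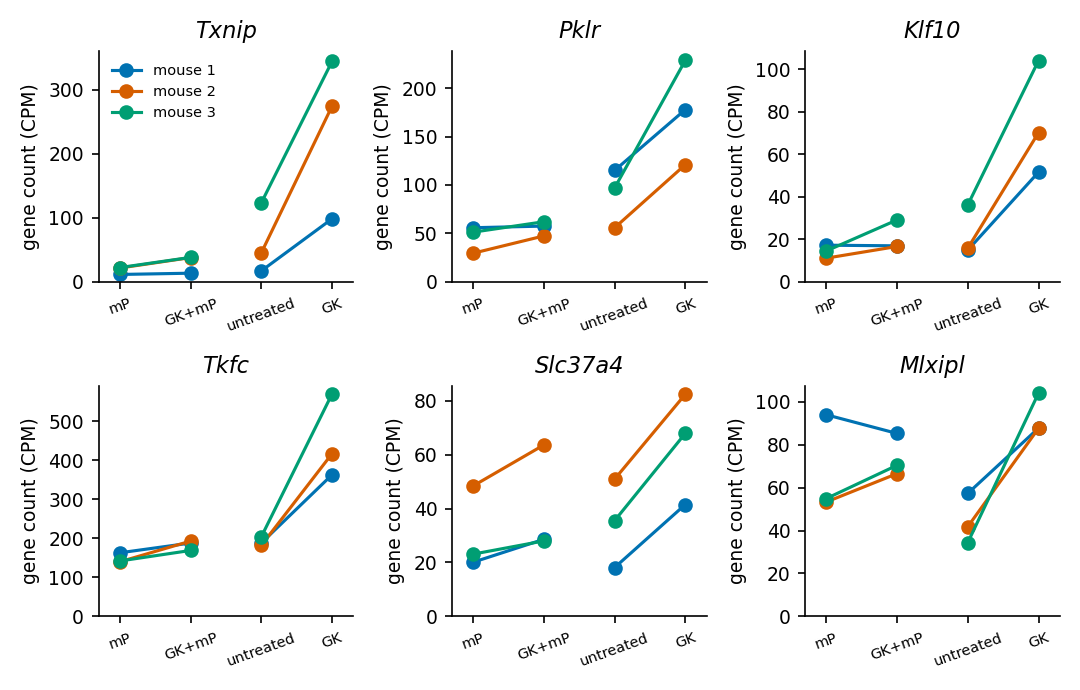
Gene counts in CPM (linear axes from 0) of 6 glucose-responsive genes in mP and GK+mP and, for the same mice, in untreated and GK cultures, with lines joining the cultures of a mouse. Txnip reaches at most 37.7 CPM with GK+mP and at least 98.0 CPM with GK alone, and Mlxipl lies between 53.3 and 93.9 CPM in all 6 libraries with mP.

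**Figure D4:**
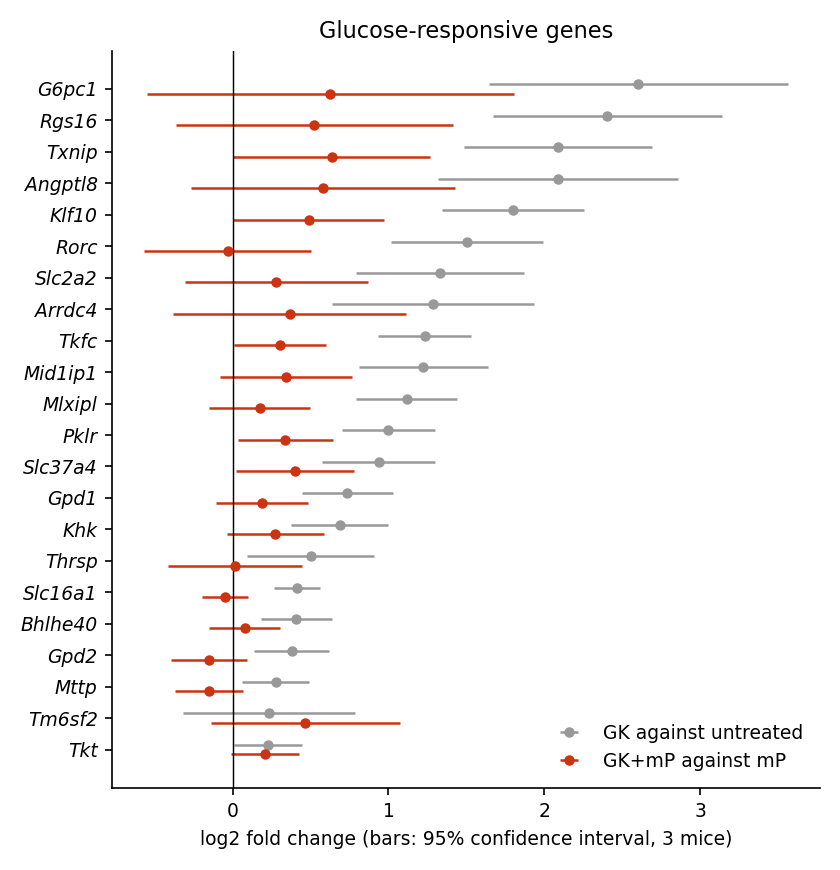
Log2 fold change (horizontal axis) with 95% confidence intervals over 3 mice for 22 genes of the glucose-responsive list, in GK+mP against mP and in GK against untreated. In GK+mP against mP the intervals of 5 genes lie above 0, and in 20 of 22 genes the upper end lies below the value of GK against untreated.

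The difference between the GK effect with mP and without GKRP was tested gene by gene. The pair without GKRP sets cultures with an adenovirus against cultures with none, and the part of this in the difference was not tested. The effect was smaller with mP for Ulk1, the kinase that starts autophagy, and for no other gene at the threshold (1 of 12176 lower, 0.00821%, and 0 higher). Ulk1 (ENSMUSG00000029512) was at 16.8, 54.4 and 30 CPM in mP and 18.4, 53.4 and 37.5 CPM in GK+mP, while it went from 21.0, 66.0 and 46.3 CPM in untreated to 55.5, 135 and 115 CPM in GK cultures. In the pairs with the other GKRP forms, the Ulk1 effect was 0.30 in GK+hP against hP, 0.38 in GK+hL against hL and 1.23 in GK+mL against mL. With mP the effect was 0.14 and without GKRP 1.25, a difference of -1.12 (SE 0.18, interval -1.49 to -0.74, adjusted p = 0.0404). This call was lost in 8 of 13 alternatives, among them those without the mouse as a block (adjusted p = 1), without any single mouse (0.324 to 0.765) and with the length trend removed (0.0697), while the size stayed between -1.02 and -1.17 in all 13 alternatives.

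At an unadjusted p under 0.05, 443 genes had a smaller (3.64%) and 328 a larger (2.69%) effect with mP. In the glucose-responsive list these were 18 and 0 of 23, and the median difference was -0.88 against 0.00 over all genes. The list was written with these results known, and 16 of its 23 genes were raised in GK against untreated, which enters the difference. Its choice therefore favours a smaller effect with mP, and the list counts are a description only. The values were -1.45 for Txnip (SE 0.41), -1.31 for Klf10 (SE 0.32), -0.93 for Tkfc (SE 0.20) and -0.66 for Pklr (SE 0.21), with adjusted p from 0.167 to 0.591. With all 36 cultures entered as samples 15 genes passed, all smaller with mP. Among them were Ulk1, Tkfc, Acly (ATP citrate lyase) and Glul (glutamine synthetase). That fit counted untreated or GK cultures of the same mouse as separate samples, although they share a hepatocyte preparation. Its 15 calls are therefore a description only and add no independent evidence to the fit of 30 samples. DESeq2 called 18 larger (0.148%) and 22 smaller (0.181%).

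The 42 genes raised by GK without GKRP were read in the 6 mP and GK+mP libraries, whose values did not enter the contrast that chose them. They shared the filter, the mouse terms and the dispersion of the same fit of 30 samples. The 42 were chosen by the size of their response without GKRP, so that response is a description only. With mP 34 of 42 were higher, beside 6258 of all 12176 genes, and 19 of the 34 were higher in 3 of 3 mice (15.5% of all genes were). At an unadjusted p under 0.05, 9 were higher (6.8% of all genes were) and 0 lower (6.92% of all genes were). The interval of 33 held 0. The median was 0.16 with mP against 0.93 without GKRP, and the value was the larger without GKRP in 41 of 42, a direction that their choice favours. For Slc25a47, a mitochondrial carrier of hepatocytes, the values were 0.07 with mP and 1.56 without GKRP. For Slc25a44, a carrier of branched-chain amino acids, they were 0.04 and 0.74, and for Fbxo34, an F-box protein, -0.22 and 0.68. Ddhd2, a triglyceride lipase, differed by 0.24 with mP (SE 0.10, adjusted p = 0.331) and by 0.93 without GKRP, and the former turned to -0.060 with the effective length offset.

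**Figure D5:**
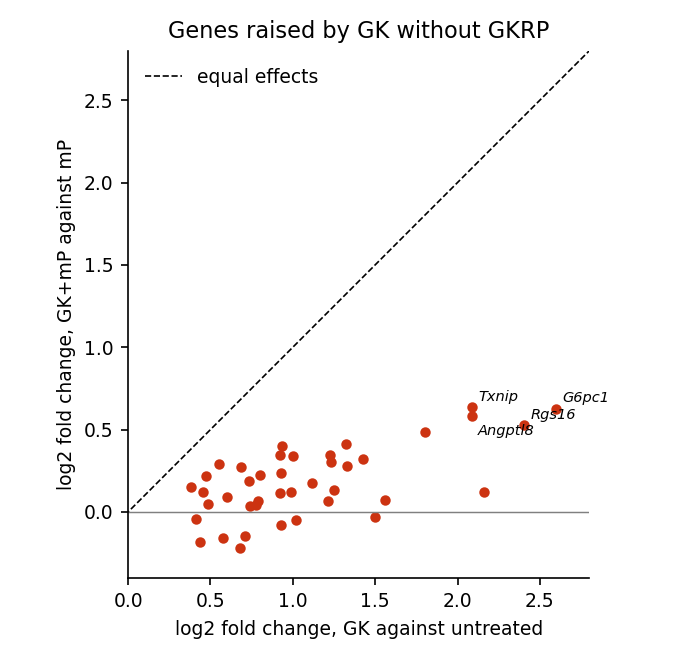
Log2 fold change in GK+mP against mP (vertical axis) for 41 of the 42 genes raised by GK without GKRP, against their log2 fold change in GK against untreated (horizontal axis), with a dashed line of equal effects. All points lie below the line, and 33 of 41 lie above 0.

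The effect of GK with mP was also set beside that with the other GKRP forms. The 42 genes had a median of 0.69 in GK+mL against mL, 0.16 in GK+mP against mP, 0.18 in GK+hP against hP and 0.31 in GK+hL against hL. The difference between the mP and mL effects passed the threshold in 0 genes (0%), with 294 genes smaller (2.41%) and 399 larger (3.28%) with mP at an unadjusted p under 0.05, and 9 larger (0.0739%) and 13 smaller (0.107%) in DESeq2. In the glucose-responsive list the effect was smaller with mP in 14 and larger in 0 of 23 genes at an unadjusted p under 0.05, with a median of -0.58. That list was written with these results known. The mouse Gckr count was 14300, 11300 and 17300 CPM in mL and 10900, 9010 and 14500 CPM in GK+mL. In each mouse these counts lay below those of mP and GK+mP, and the part of this level in the mP and mL difference was not tested. For Ulk1 the effect with mP was smaller than that with mL by -1.09 (SE 0.18), just outside the threshold (adjusted p = 0.0712). For Txnip the difference was -1.82 with a larger error (SE 0.42, adjusted p = 0.435). Between mP and hP the counts were 0 and 0 at the threshold, and 441 larger (3.62%) and 362 smaller (2.97%) at an unadjusted p under 0.05, of which 0 were in the glucose-responsive list. DESeq2 called 8 larger (0.0657%) and 15 smaller (0.123%) there. The median over the list was 0.05, and the single-gene standard errors (0.43 for Txnip, 0.21 for Pklr) leave room for differences of either sign.

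Genes of glycolysis lay slightly higher. Of 32 tested, 24 were higher, 7 of them at an unadjusted p under 0.05 (6.8% of all genes were), and 1 was lower at that p, with a median of 0.15. Without mouse 1 the 7 fell to 2, beside 3.8% of all genes. Tpi1 (triose-phosphate isomerase) was at 852, 1110 and 933 CPM against 1160, 1320 and 937 CPM (0.24, SE 0.08), Eno1 (enolase) differed by 0.24 (SE 0.09), Gpi1 (glucose-6-phosphate isomerase) by 0.22 (SE 0.08) and Aldoa (aldolase A) by 0.25 (SE 0.10), with adjusted p from 0.28 to 0.31. These 4 transcripts are short (1106 to 1202 bases on average), their ratio was largest in mouse 1 in each, and without mouse 1 the differences were 0.13 to 0.16. In the list as a whole the median by mouse was 0.27, 0.12 and 0.04, and 0.09 over 3 mice with the length trend removed. Tpi1 turned to -0.031 with the effective length offset.

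Gluconeogenesis and glucose export genes had a median of 0.15, with 11 of 13 higher and 2 at an unadjusted p under 0.05 (Fbp2 and Slc37a4), where 6.8% of all genes were higher. Without mouse 1 the count at that p was 1. Fbp1, the liver fructose-1,6-bisphosphatase, was at 124, 104 and 78.5 CPM against 161, 101 and 92.2 CPM, and Pck1, the cytosolic PEP carboxykinase, at 15.6, 42.8 and 16.5 CPM against 10.3, 27.7 and 22.7 CPM. Glycogen genes had a median of 0.05 (12 of 21 higher). Among them Phkg2, the catalytic subunit of liver phosphorylase kinase, was at 9.74, 11.3 and 12.2 CPM against 14.7, 16 and 13.6 CPM without overlap (0.41, SE 0.13, adjusted p = 0.25), and Gys2, liver glycogen synthase, differed by 0.10 (SE 0.24). Fructose and pentose phosphate genes had a median of 0.12, with 10 of 14 higher. Khk, ketohexokinase, was higher by 0.67 in mouse 1 and by 0.03 and 0.02 in mice 2 and 3.

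Lipogenic genes did not lie above the rest. Of 24 tested 7 were higher and 17 lower, 0 and 1 of them at an unadjusted p under 0.05 (6.8% and 6.92% of all genes were), and the median was -0.04. Fasn, fatty acid synthase, was at 347, 225 and 275 CPM in mP and at 180, 310 and 356 CPM in GK+mP, lower in mouse 1 and higher in mice 2 and 3 (-0.94, 0.46 and 0.38). Acaca, acetyl-CoA carboxylase, gave -0.73, 0.33 and 0.15, and Acly -0.52, 0.27 and -0.02. These transcripts average 2967 to 4998 bases, and without mouse 1 the differences were 0.42, 0.25 and 0.13 with unadjusted p of 0.012 for Fasn, 0.12 for Acaca and 0.27 for Acly. Scd1, stearoyl-CoA desaturase, was flat in mice 2 and 3 (3290 and 2420 CPM in mP, 3280 and 2340 CPM in GK+mP). Lpin2, a phosphatidate phosphatase, was lower by 0.56, 0.12 and 0.23 in the 3 mice (-0.29, SE 0.11, adjusted p = 0.29).

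Cholesterol synthesis genes had a median of -0.02, with 12 of 25 higher. Hmgcs1, which makes hydroxymethylglutaryl-CoA, was at 233, 229 and 293 CPM in mP and at 188, 239 and 239 CPM in GK+mP (-0.18, SE 0.09, adjusted p = 0.36). The groups overlapped, and the ratio was -0.31, 0.06 and -0.29 in the 3 mice. Sqle (squalene epoxidase) and Insig1 (which retains SREBP in the endoplasmic reticulum) differed by -0.03 and -0.11, with intervals that held 0.

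Interferon and innate response genes were mostly lower. Of 29 tested 21 were lower, 8 in 3 of 3 mice (14.6% of all genes were), 7 at an unadjusted p under 0.05 (6.92% of all genes were) and 0 higher at that p, and the median was -0.06 in the fit and -0.01, -0.40 and -0.01 by mouse. Without mouse 1 it was -0.24. Ifit1, an inhibitor of viral translation, was at 25.1, 25.3 and 30.2 CPM in mP and 23.1, 10.7 and 19.7 CPM in GK+mP without overlap (-0.65, SE 0.27, adjusted p = 0.32). Rsad2 (viperin) was at 71.6, 75.8 and 89.3 CPM against 37.4, 39.3 and 78.9 CPM (-0.70, SE 0.26), and Ifih1 (the RNA sensor MDA5) and Gbp3 (a guanylate-binding protein) differed by -0.36 (SE 0.11) and -0.34 (SE 0.12). The list median was -0.22 in GK against untreated, -0.14 in GK+mL against mL, -0.19 in GK+hP against hP and -0.09 in GK+hL against hL. No gene of it was changed in GK+mP against mP, and its median was lowest in mouse 2.

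Acute phase genes, products of the liver in inflammation, were split, with 13 of 24 higher and 11 lower in the fit and a median of 0.04. At an unadjusted p under 0.05, 5 were lower (6.92% of all genes were) and 0 higher. Without mouse 1 the median was -0.12 and 6 were lower at that p, beside 3.65% of all genes. The examples of smallest p were both lower. Fga (fibrinogen alpha) was at 2280, 4570 and 3240 CPM against 2010, 3520 and 2520 CPM (-0.31, SE 0.09, adjusted p = 0.24), and Crp (C-reactive protein) at 263, 357 and 364 CPM against 215, 319 and 270 CPM (-0.29, SE 0.09, adjusted p = 0.25). Both were lower in 3 of 3 mice.

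Hepatocyte markers were high in all 6 libraries, with a summed level of 81500 to 126000 CPM in mP and 99000 to 125000 CPM in GK+mP (14 of 15 tested). The sums of this and the next lists also take in markers too low to be tested. Macrophage markers summed to 264 to 304 and 277 to 317 CPM (12 of 12 tested, none at 0), endothelial and stellate markers to 100 to 207 and 75.0 to 222 CPM (11 of 15 tested) and cholangiocyte markers to 20.9 to 155 and 19.5 to 188 CPM (3 of 8 tested, with Cftr and Sctr at 0 in both groups). The ranges of mP and GK+mP overlapped for each list, and the median log2 differences were -0.04, 0.01, -0.08 and 0.01. In such bulk RNA fewer cells of a type and less RNA per cell cannot be told apart.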

How the data were processed

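RNA-seq reads had been quantified by the authors with Salmon 1.4.0 on mouse transcripts (GRCm39), as deposited, giving estimated counts, TPM and effective lengths per transcript. Here the estimated counts of 98.8% of transcripts (1655 had no match) were summed to 52230 genes with a later Gencode annotation of the same build and rounded, and deposited TPM values weighted transcript lengths. The 2 cultures of a mouse in the untreated and GK groups were summed, giving 30 samples. After edgeR's filterByExpr, 12176 genes were fitted by edgeR 4.0.16 (TMM, factors 0.901 to 1.093, quasi-likelihood F test, R 4.3.3) with condition and mouse as terms and 18 residual degrees of freedom, and p-values were adjusted by Benjamini-Hochberg over all genes. Within-mouse pairing comes from the shared preparation, and deviations of same-mouse libraries correlated at 0.366, 0.185 and 0.126. Those of different mice correlated from -0.263 to 0.133, so the value of mouse 3 did not stand above all of them. CPM are on TMM-scaled libraries, and their precision is limited by counting and by 3 mice. Alternatives included DESeq2 1.42.0 and a correction for each library's trend on transcript length, chosen after seeing the data. Named genes were Gckr, up to 10 genes of smallest unadjusted p in each direction among those moving alike in 3 mice, genes passing an interaction test, fixed pathway genes and list examples of smallest p, with others said to be chosen after their values were seen. Some genes that this rule takes in are not reported here. The comparison and all gene lists were chosen with earlier results of these data known. Promoters came from RefSeq (GRCm38.p6).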

Additional observations from a re-analysis of the deposited data

Results flagged for a closer look

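Gckr in 1 of the 6 cultures with GK and no GKRP vector was far from the others, at 1460 CPM, by its gap to the nearest culture relative to the range of the 6. Chance sets apart about 1 in 20 groups by this measure. The culture was of mouse 3, and it belongs to the pair without GKRP with which GK+mP against mP was compared. Without mouse 3, the Ulk1 difference between both effects was -1.17 (adjusted p = 0.324).

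The effect of GK on Ulk1 differed between hepatocytes with mP and without GKRP in the test of the difference itself, at -1.12 on the log2 scale. Ulk1 was the single gene past the threshold, in edgeR and with the mouse as a block.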

How the results depend on the processing

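Of 112 recomputed counts of genes 89 stayed within 1.5 times the reported count, and of 312 list medians 301 moved by less than the spread between mice. In GK+mP against mP the count of raised genes was 1 with no filter on low counts, with each of 36 cultures as a sample and with the length trend removed, and DESeq2 gave 9 raised and 11 lowered. For the difference from GK without GKRP, the count with a smaller effect was 0 with no replicate block, with only the groups compared with or without the block, with a transcript length offset and with the length trend removed, 2 with no filter and with a minimum count of 30, 15 with 36 cultures and 0 to 1 leaving out a mouse (0 without mouse 1 or 2, and without mouse 3 a gene other than Ulk1). DESeq2 gave 22 smaller and 18 larger. For mL, DESeq2 gave 9 larger and 13 smaller, and for hP 8 and 15, and leaving out a mouse gave 0 to 1 larger for each (1 without mouse 2). The cause of these shifts was not tested. Pairing by mouse changed no other count.

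With the transcript length offset the medians were 0.17 for the genes the study names, 0.34 for gluconeogenesis, -0.12 for cholesterol synthesis, -0.32 for G2/M genes and -0.0048 for p53 targets, and with the length trend removed 0.0099 for lipogenesis. Leaving out a mouse gave 0.049 to 0.19 for fructose and pentose phosphate genes, -0.088 to -0.011 for lipogenesis and -0.10 to 0.0090 for cholesterol synthesis. The sign of single genes turned with the length offset for Gckr (0.92), Senp6 (0.46), Cnot6l (0.11), Ulk1 (-0.24), Tpi1 (-0.031), Slc25a47 (-0.0026), Fasn (0.10), Acly (0.56), Gys2 (-0.45), Apob (0.0007) and Ddhd2 (-0.060). It turned with the length trend removed for Fasn (0.16), Acaca (0.14), Acly (0.0031) and Sqle (0.055), with no replicate block for Sqle (0.006), and with only the groups compared and no block for Fasn (0.0068) and Sqle (0.0115). Leaving out a mouse gave -0.11 to 0.21 for Slc25a47, -0.086 to 0.16 for Slc25a44, -0.27 to 0.42 for Fasn, -0.27 to 0.25 for Acaca, -0.27 to 0.13 for Acly, -0.13 to 0.039 for Sqle, -0.16 to 0.39 for Gys2, -0.068 to 0.54 for Apoa2 and -0.085 to 0.17 for Glul. With 3 mice and 1 culture each in mP and GK+mP, p-values rest on the spread left after the condition and mouse terms. That spread was estimated over all 30 samples, and it is not the spread between preparations. For most genes a change past the fold limits was within the interval.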

Other observations

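Of 55 S-phase genes tested 45 were higher, 14 in 3 of 3 mice (15.5% of all genes were), with a median of 0.11 (0.07 without mouse 1). At an unadjusted p under 0.05, 5 were higher (6.8% of all genes were) and 0 lower, and without mouse 1 the 5 fell to 1 (3.8% of all genes). Cdc45, a part of the replicative helicase, was at 1.86, 0.972 and 1.37 CPM in mP and at 4.59, 2.11 and 2.46 CPM in GK+mP without overlap (1.10, SE 0.36, adjusted p = 0.256). Chaf1b, a subunit of chromatin assembly factor 1, was at 35.8, 26.6 and 31.7 CPM against 51.0, 35.6 and 40.3 CPM (0.43, SE 0.17, adjusted p = 0.31). The 7 G2/M genes that could be tested, of 24, had a median of 0.21 with 0 at an unadjusted p under 0.05.

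Clock genes were lower in 13 of 18, with a median of -0.08 that was -0.47 in mouse 1 and 0.01 without it. Bmal1, the activator of the clock, was at 3.44, 9.72 and 11.8 CPM in mP and at 1.38, 7.55 and 8.52 CPM in GK+mP (-0.60, SE 0.19, adjusted p = 0.253), and Nr1d2, a repressor of Bmal1, at 69.4, 76.9 and 50.2 CPM against 46.6, 69.7 and 40.9 CPM (-0.33, SE 0.11, adjusted p = 0.256). Both were lower in 3 of 3 mice. Medians of the remaining lists lay close to that of all genes, at -0.05 for bile acid genes, 0.05 for fatty acid oxidation, 0.07 for p53 targets, 0.04 for ATF4 and unfolded protein response genes, 0.06 for immediate early genes and 0.02 for mitochondrial carriers. The 14 genes that the study names for GK or GKRP, a choice made on these samples and so not independent, had a median of 0.29 with mP and 1.42 without GKRP.

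Gene families with short transcripts, picked after their values were seen, were higher. The median was 0.27 for 47 complex I (Nduf) genes, 0.26 for 45 large and 0.34 for 31 small ribosomal protein genes, and 0.22 for 78 mitochondrial ribosomal protein genes. In mouse 1 these medians were 0.65, 0.66, 0.74 and 0.57, and without mouse 1 they were 0.03, -0.03, 0.02 and 0.00.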
